A study of Mus musculus with 24 samples.

Results

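Amino acid transporters that carry amino acids across the hepatocyte surface were followed through dietary methionine restriction (MR) in mouse liver, with and without the transcription factor NRF2 in hepatocytes. The group was set by name and holds 8 genes: Slc3a2, Slc7a1, Slc7a2, Slc38a2, Slc38a3, Slc38a4, Slc43a1 and Slc6a9. All 8 were found among the 15160 genes of the count table and all 8 passed the filter on low counts, which kept 13336 genes. The liver RNA came from 24 male mice, labelled as 5 months old, in 4 groups of 6. WT mice carried homozygous floxed Nfe2l2 alleles without Cre (labelled NRF2fl/fl), and their NRF2 KO littermates carried the same floxed alleles together with a Cre transgene driven by the albumin promoter (NRF2fl/(alb)), so the deletion was limited to cells that express albumin and other liver cells kept the gene. Each genotype received a Con diet with 0.86% methionine or an MR diet with 0.17% methionine, given by the paper as 8 weeks from 8 weeks of age. Its methods also describe calorimetry and a re-equilibration period between those 8 weeks and tissue harvest, so the livers were taken later than that. Mice were killed after a fast of 4 h. Both diets lacked cysteine, per the methods, and that restriction was common to every group. The mice WT_CON_7604 and WT_MR_7612, treated as outliers by the study, were left out of the values given first, leaving 5 mice in either WT group and 6 in either NRF2 KO group, each with 1 library.

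Amino acids enter and leave hepatocytes through families of solute carriers that differ in substrate and in their coupling to sodium. Several of these genes are known targets of the amino acid response, in which a shortage of an essential amino acid activates the kinase GCN2 or a related kinase, translation of the transcription factor ATF4 rises, and ATF4 binds composite elements with the letters TGATGNAA near its target genes. NRF2 acts through a different sequence, the antioxidant response element, whose core is TGACNNNGC, and the cystine transporter Slc7a11 is a well-known gene under both factors. Liver receives dietary amino acids from the intestine through the portal vein, and system A, system N and cationic amino acid transport are characteristic of hepatocytes.

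The letters of both elements were searched on both strands of the RefSeq promoter windows of the GRCm38.p6 build, which span 250 bases before to 50 bases after a gene's start. The 6 members with an entry, all except Slc7a2 and Slc38a3, had 11 windows. None of these 11 windows held the ATF4 composite letters, which were found in 3.97% of all 32851 windows. The antioxidant core letters were found in 5 of the 11 windows, belonging to Slc7a1, Slc38a2, Slc43a1 and Slc6a9, against 12.4% of all windows. A match is only a run of letters, and a window without one says no more than that these letters are not in that window. The promoter stretches of Slc7a1 and Slc38a2, members that rose on MR in both genotypes, are shown with the antioxidant core in capitals, and that of Slc7a11, a transporter outside the group that rose in both, with its 2 composite matches in capitals. They are written 5′ to 3′ on the strand of the gene.
Slc7a1 promoter, chr5:148399905-148400004, minus strand: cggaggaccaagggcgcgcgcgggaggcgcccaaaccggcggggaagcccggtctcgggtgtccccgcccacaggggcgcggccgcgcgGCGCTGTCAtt
Slc38a2 promoter, chr15:96699731-96699828, minus strand: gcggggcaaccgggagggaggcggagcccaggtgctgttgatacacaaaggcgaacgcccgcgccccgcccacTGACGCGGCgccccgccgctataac
Slc7a11 promoter, chr3:50443615-50443713, minus strand: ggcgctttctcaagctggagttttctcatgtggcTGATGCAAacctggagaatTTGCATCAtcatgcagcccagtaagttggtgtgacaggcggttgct
The composite letters of Slc7a1 lay just beyond the window, in the first exon. Among the 43 coding transcripts of the 8 members in GENCODE M21, the first 300 bases held them in 1, a transcript of Slc7a1, against 3.71% of 58797 coding transcripts. That site is shown with the composite letters in capitals, beside the site of Asns, the asparagine synthetase gene whose induction is the usual readout of the amino acid response.
Slc7a1 exon 1 site, chr5:148399820-148399849, minus strand: cggcgcgcggcTGATGAAAccggctcggat
Asns exon 1 site, chr6:7693214-7693243, minus strand: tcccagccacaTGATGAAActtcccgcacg
The match began at base 67 of the Slc7a1 transcript and at base 23 of the Asns transcript. For Asns the exon is that of a GENCODE transcript. In the RefSeq promoter window of Asns the same letters were a match that began 23 bases upstream of the start.

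Reads were counted at the 3′ ends of transcripts, so a value measures the end of a gene and does not separate splice forms. The 22 libraries held between 6197291 and 22068338 counts. Values are given as CPM, reads of the gene relative to all reads counted in the library after TMM scaling, and comparisons are log2 fold changes with their standard error (SE) from edgeR's quasi-likelihood test, with calls made at 0.05 on p-values adjusted by the Benjamini-Hochberg method over all 13336 genes. In the check of the targeted gene, Nfe2l2 reads, which come from its 3′ end, lay between 94.0 and 125 CPM in all WT libraries but 1 and between 202 and 339 CPM in the NRF2 KO libraries. The exception, the library labelled WT_CON_7607, had 324 CPM, a level of the NRF2 KO mice. The deletion removes part of the last exon, and reads from beyond that part can still be counted, so these levels separate the genotypes by a higher value and do not measure the loss itself. All calls on the 8 transporters were the same without it, and its values are given where they stand out. The hepatocyte markers were abundant, with summed levels of at least 77060 CPM in every mouse, and 1 of 9 fell on MR in each genotype. With library size scaling 2 rose in each genotype, and 1 fell in WT and 0 in NRF2 KO. Their sums ran from 87252 to 118069 CPM on Con and 77060 to 95406 CPM on MR in WT. In NRF2 KO they ran from 111959 to 132326 CPM on Con and 96540 to 120199 CPM on MR. Markers of some other liver cells moved with the diet: on MR in WT, 5 of 8 stellate cell, 4 of 7 macrophage and 4 of 5 bile duct cell markers fell, and in NRF2 KO 4 of 8, 0 of 7 and 1 of 5. Over all genes 6.91% fell on MR in WT and 6.34% in NRF2 KO. No stellate cell, macrophage or bile duct cell marker rose in either genotype. The 4 macrophage markers in WT became 1 with library size scaling and 1 with all 24 mice, and the 4 stellate cell markers in NRF2 KO likewise became 1 and 1. Of 7 endothelial cell markers 0 were called in WT and 1 rose in NRF2 KO (Kdr), and of 4 lymphocyte markers 1 fell in WT (Ptprc) and 0 were called in NRF2 KO. The summed bile duct marker level ran from 49.0 to 72.6 CPM on Con and 20.9 to 28.3 CPM on MR in WT, and from 31.7 to 53.1 CPM on Con and 20.6 to 29.0 CPM on MR in NRF2 KO. For the macrophage markers the sums were 335 to 481, 269 to 311, 287 to 422 and 252 to 353 CPM in the same order, and for the stellate cell markers 407 to 683, 355 to 442, 467 to 555 and 385 to 505 CPM. No tested marker was at 0 in all mice. The part of these cells in the transporter values was not tested, and in bulk liver RNA fewer cells of a type and less RNA per cell cannot be told apart.

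MR changed 6 of the 8 transporters in WT mice, where 13.8% of all genes tested were called. Slc3a2, Slc7a1, Slc7a2, Slc38a2 and Slc6a9 rose (6.91% of all genes did), and Slc43a1 fell (6.91%). In NRF2 KO mice 4 of the 8 were called, against 12.6% of all genes: Slc3a2, Slc7a1 and Slc38a2 rose (6.23%) and Slc43a1 fell (6.34%). The genes called in both genotypes were thus Slc3a2, Slc7a1 and Slc38a2, higher in both as were 3.17% of all genes, and Slc43a1, lower in both as were 2.71%. The median log2 fold change of the 8 was 0.52 in WT and 0.28 in NRF2 KO, beside -0.0062 and -0.0042 over all genes. An unadjusted p under 0.05 was found for 6 of the 8 in WT and 8 of the 8 in NRF2 KO. The mice of the MR and Con groups did not overlap for Slc3a2, Slc38a2 and Slc6a9 in WT and for Slc3a2 and Slc7a1 in NRF2 KO, each time with MR higher, as held for 5.32% and 2.62% of all genes. The values of every mouse are plotted by group.

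**Figure D1:**
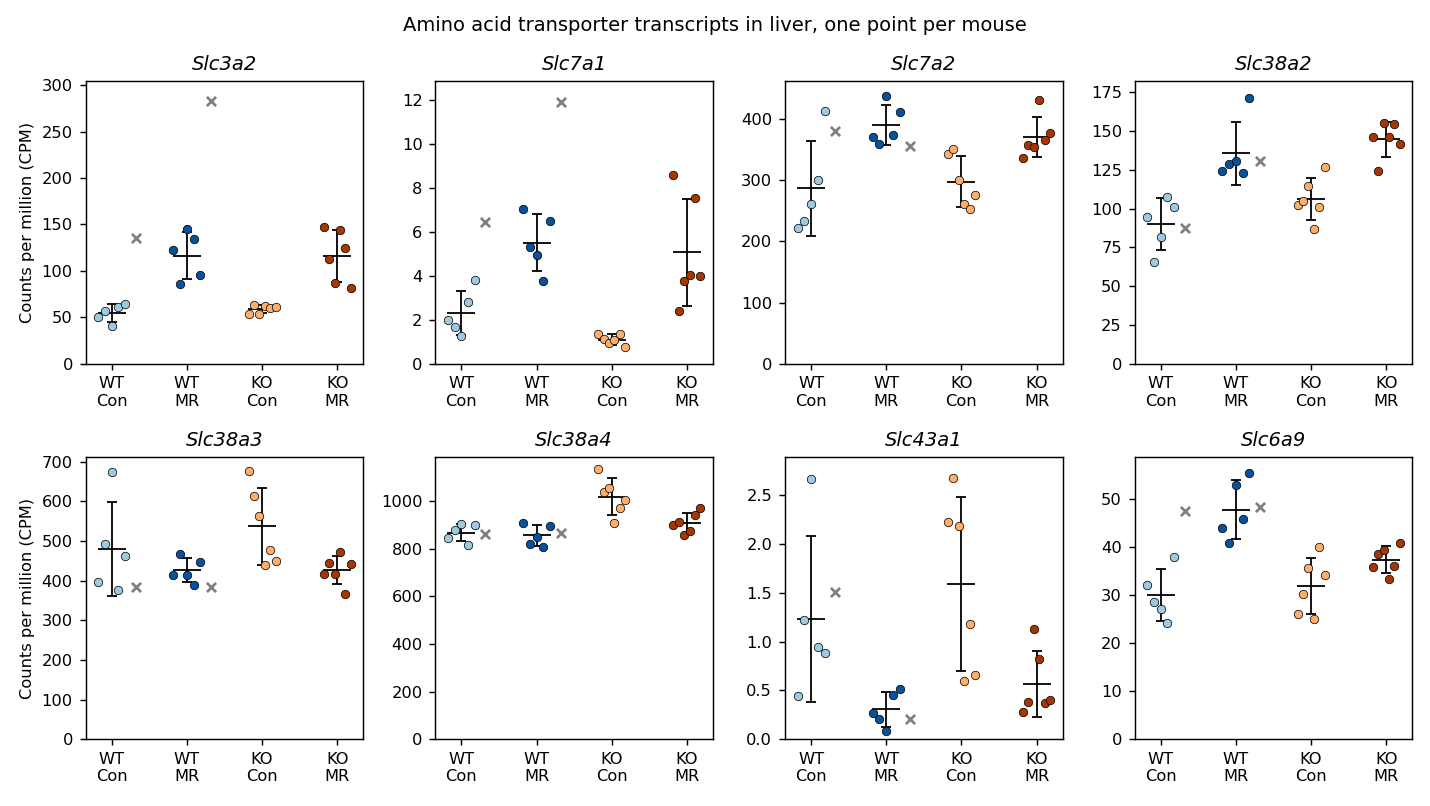
Level of each of the 8 transporters in CPM (vertical axes, starting at 0) for the Con and MR groups of WT and NRF2 KO, with 1 point per mouse and the mean ± SD of the 5 or 6 mice fitted. Grey crosses are the 2 mice left out of the fit, which stand above their groups for Slc3a2 and Slc7a1; among the mice fitted, Slc3a2 shows no overlap between Con and MR in either genotype, while the WT Con cross at 135 CPM lies within the WT MR range.

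Slc3a2 encodes the heavy chain of CD98, a glycoprotein that brings the light chains of several Slc7 transporters to the cell surface (ENSMUSG00000010095, chromosome 19, 8706882 to 8723369, minus strand of GRCm38). In WT Con mice it was measured at 50.7, 56.6, 40.4, 60.9 and 63.9 CPM, and in WT MR mice at 122, 85.4, 145, 134 and 95.8 CPM. In NRF2 KO Con mice the lowest, median and highest values were 53.2, 60.1 and 63.4 CPM, and in NRF2 KO MR mice 81.3, 119 and 147 CPM. Every MR mouse of either genotype lay above every Con mouse. The rise was 2.13-fold in WT (log2 fold change 1.09, SE 0.16, adjusted p = 1.5e-04) and 1.97-fold in NRF2 KO (0.98, SE 0.15, adjusted p = 2.2e-04). The 2 effects differed by -0.11 on the log2 scale, with a 95% interval from -0.57 to 0.34. With each of the 22 mice left out in turn the rise was called in 22 of 22 fits in both genotypes. The spread between mice was wider on MR, at a coefficient of variation of 21.6% in WT and 24.1% in NRF2 KO, than on Con, at 17.1% and 7.38%, a difference that was not tested. Of the mice left out, WT_CON_7604 stood at 135 CPM, above the 40.9 to 64.4 CPM of the other WT Con mice in the fit of all 24, and WT_MR_7612 at 283 CPM, above 85.8 to 145 CPM. With both included the rise of Slc3a2 was still called, at 1.09 in WT and 0.99 in NRF2 KO, with adjusted p-values of 0.011 and 0.026.

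Slc7a1, or CAT1, is the sodium-independent carrier of arginine, lysine and ornithine of most cells and is usually low in liver (ENSMUSG00000041313, chromosome 5, 148327410 to 148399904, minus strand). The WT Con mice had 1.97, 1.67, 1.25, 2.82 and 3.78 CPM, and the WT MR mice 7.04, 5.30, 4.93, 3.77 and 6.48 CPM. The lowest, median and highest NRF2 KO mice had 0.738, 1.09 and 1.36 CPM on Con and 2.39, 4.03 and 8.58 CPM on MR. The ranges touched in WT, where the highest Con mouse exceeded the lowest MR mouse by little, and stood apart in NRF2 KO. These values rest on 9 to 180 counts per library. Slc7a1 rose 2.38-fold in WT (log2 fold change 1.25, SE 0.30, adjusted p = 0.0083) and 4.63-fold in NRF2 KO (2.21, SE 0.30, adjusted p = 7.9e-05), and both calls held in 22 of 22 fits with a mouse left out. The larger fold in NRF2 KO went with a lower Con level and not with a higher MR level: the medians on MR were 5.30 CPM in WT and 4.03 CPM in NRF2 KO, and those on Con 1.97 and 1.09 CPM. On Con all 6 NRF2 KO mice lay below the WT mean, and the highest of them, at 1.36 CPM, lay above only the lowest WT mouse. That difference (-1.08, SE 0.33) had an adjusted p of 0.10 and was not called, except by DESeq2 (adjusted p = 0.032) and without WT_CON_7605 (-1.26, adjusted p = 0.049). The interaction of genotype and diet was 0.96 (95% interval 0.067 to 1.85), with an adjusted p of 0.63, so a larger MR effect in NRF2 KO was not shown.

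Slc7a2, or CAT2, is the second cationic carrier and the abundant one of hepatocytes, where a low-affinity splice form prevails (ENSMUSG00000031596, chromosome 8, 40862396 to 40922308, plus strand). WT Con mice had 222, 234, 262, 301 and 413 CPM and WT MR mice 370, 359, 437, 374 and 412 CPM. The WT Con mouse with 413 CPM lay within the MR range, and the other 4 lay below it. In NRF2 KO the lowest, median and highest values were 253, 288 and 351 CPM on Con and 336, 362 and 430 CPM on MR, again with overlap. Slc7a2 rose 1.36-fold in WT (log2 fold change 0.45, SE 0.13, adjusted p = 0.024). The call was lost in 5 of 22 fits with a mouse left out, namely without WT_CON_7602, WT_CON_7603, WT_CON_7605, WT_MR_7613 or WT_MR_7616 (highest adjusted p = 0.074), with all 24 mice (0.35, adjusted p = 0.068) and in the fit of the WT groups alone (0.44, adjusted p = 0.076). In NRF2 KO the value was 0.32 (SE 0.12, adjusted p = 0.080), called in the fit of the NRF2 KO groups alone (adjusted p = 0.036) and with library size scaling, and the difference between genotypes was -0.13 (95% interval -0.49 to 0.23). Thus the 2 cationic carriers were both called in WT, with Slc7a1 showing the larger fold.

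Slc38a2, or SNAT2, belongs to system A, the sodium-coupled uptake of small neutral amino acids including methionine, and is the system A gene known for adapting to amino acid supply (ENSMUSG00000022462, chromosome 15, 96687392 to 96699730, minus strand). WT Con mice had 94.6, 65.4, 81.6, 108 and 101 CPM, and WT MR mice had 124, 129, 130, 123 and 172 CPM. For NRF2 KO the lowest, median and highest values were 86.9, 104 and 127 CPM on Con and 124, 146 and 155 CPM on MR. The WT groups did not overlap, and the NRF2 KO groups did by 1 mouse on each side. Slc38a2 rose 1.51-fold in WT (log2 fold change 0.59, SE 0.12, adjusted p = 0.0019) and 1.36-fold in NRF2 KO (0.45, SE 0.11, adjusted p = 0.0084), in 22 of 22 fits with a mouse left out. The genotypes differed in this effect by -0.15 (95% interval -0.48 to 0.18).

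Slc38a4, or SNAT4, is a further system A carrier, found mainly in hepatocytes (ENSMUSG00000022464, chromosome 15, 96994820 to 97055956, minus strand). Its levels varied little, with a coefficient of variation between 4.28% and 7.64% in the 4 groups. WT Con mice had 844, 877, 904, 816 and 897 CPM and WT MR mice 910, 822, 847, 806 and 895 CPM, ranges that nearly coincided. The fold change in WT was -0.02 on the log2 scale (95% interval -0.17 to 0.13, adjusted p = 0.89), so any effect of MR in WT was small. In NRF2 KO the lowest, median and highest values were 907, 1020 and 1135 CPM on Con and 856, 905 and 972 CPM on MR, with a log2 fold change of -0.16 (SE 0.066, adjusted p = 0.11). DESeq2 (adjusted p = 0.032) and quality weights on all 24 mice (adjusted p = 0.034) called this fall, and with library size scaling the value was -0.0056. On Con every NRF2 KO mouse lay above every WT mouse, as held for 0.945% of all genes, and the difference of 0.23 (SE 0.070) had an adjusted p of 0.091 and a DESeq2 adjusted p of 0.0065. Of the members that belong to system A, 1 was thus called in both genotypes and 1 in neither by edgeR's quasi-likelihood test.

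Slc38a3, or SNAT3, is the system N carrier that moves glutamine and histidine into and out of hepatocytes, mainly around portal veins for uptake and central veins for release (ENSMUSG00000010064, chromosome 9, 107650634 to 107669530, minus strand). WT Con mice had 397, 492, 673, 376 and 461 CPM and WT MR mice 415, 466, 415, 388 and 447 CPM. The NRF2 KO mice had lowest, median and highest values of 440, 520 and 676 CPM on Con and 367, 429 and 473 CPM on MR. The Con mice were spread widely and the MR mice lay together near the lower Con values, with coefficients of variation in WT of 24.5% on Con and 7.14% on MR. The log2 fold change was -0.17 (SE 0.13, adjusted p = 0.43) in WT and -0.33 (SE 0.12, adjusted p = 0.071) in NRF2 KO. The second value was called in 3 of 22 fits with a mouse left out, in the fit of the NRF2 KO groups alone (adjusted p = 0.049) and with quality weights on all 24 mice (-0.37, adjusted p = 0.014).

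Slc43a1, or LAT3, carries large neutral amino acids such as leucine, phenylalanine and methionine without sodium (ENSMUSG00000027075, chromosome 2, 84838850 to 84863594, plus strand). It was the 1 member that fell. WT Con mice had 0.439, 1.22, 2.66, 0.939 and 0.882 CPM, and WT MR mice 0.266, 0.208, 0.0864, 0.452 and 0.518 CPM. The corresponding lowest, median and highest values in NRF2 KO were 0.595, 1.68 and 2.67 CPM on Con and 0.280, 0.397 and 1.13 CPM on MR. The groups overlapped in both genotypes, and the counts were few, between 1 and 6 per library in WT MR and between 6 and 51 in WT Con. The log2 fold change was -2.10 (SE 0.58, adjusted p = 0.017) in WT and -1.50 (SE 0.43, adjusted p = 0.025) in NRF2 KO. In WT the call rested on WT_CON_7605, the mouse with 2.66 CPM, without which it was -1.58 with an adjusted p of 0.069. In the fit of the WT groups alone Slc43a1 did not pass the filter on low counts and was not tested. It passed that filter only in fits that included NRF2 KO mice. In NRF2 KO it was lost in 5 of 22 fits, those without KO_CON_7617, KO_CON_7618, KO_CON_7620, KO_MR_7625 or KO_MR_7631. The interaction was 0.60 (95% interval -0.92 to 2.12), too wide to compare the genotypes.

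Slc6a9, or GLYT1, is a sodium- and chloride-coupled glycine carrier, and glycine is 1 of the amino acids of glutathione (ENSMUSG00000028542, chromosome 4, 117834506 to 117875198, plus strand). WT Con mice had 32.2, 28.4, 27.1, 24.1 and 38.0 CPM and WT MR mice 43.8, 40.9, 52.7, 45.8 and 55.4 CPM. In NRF2 KO the lowest, median and highest values were 25.01, 32.1 and 40.0 CPM on Con and 33.3, 37.3 and 40.8 CPM on MR. The WT groups did not overlap, and in NRF2 KO the MR mice lay within or just above the Con range. Slc6a9 rose 1.59-fold in WT (log2 fold change 0.67, SE 0.12, adjusted p = 9.1e-04), in 22 of 22 fits with a mouse left out. In NRF2 KO the value was 0.23 (SE 0.11, adjusted p = 0.18), called with quality weights on all 24 mice (0.30, adjusted p = 0.046) and with library size scaling. On MR all 6 NRF2 KO mice lay below all 5 WT mice, as held for 2.91% of all genes, with a difference of -0.35 (SE 0.12, adjusted p = 0.12). The interaction was -0.43 (95% interval -0.78 to -0.09), with an unadjusted p of 0.016 and an adjusted p of 0.51. The library labelled WT_CON_7607 was the lowest WT Con mouse here, and without it the interaction was -0.37 with an adjusted p of 0.69. WT_CON_7604, left out of the fit, had 47.5 CPM, above the 24.3 to 38.3 CPM of the other WT Con mice. The last exons of Slc6a9 are overlapped on the opposite strand by Ccdc24, B4galt2 and Gm17114, of which B4galt2 was listed, with at most 16 counts in a library. The methods name the kit maker's FWD pipeline for forward reads. Whether the counting used the strand is not stated in the sources used here, so it was not settled whether the values of Slc6a9 include reads of these genes.

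Between the genotypes none of the 8 transporters was called by edgeR's quasi-likelihood test. On Con, where 2.07% of all genes were called, 3 of the 8 had an unadjusted p under 0.05 (Slc7a1 lower, Slc38a2 and Slc38a4 higher in NRF2 KO). The share of all genes under that unadjusted threshold was not counted for any comparison. DESeq2 called 2 of the 8 on Con (Slc7a1 and Slc38a4), where it called 451 of 13336 genes, and limma called 0 of the 8. On MR, where 1.93% of all genes were called, 1 had an unadjusted p under 0.05 (Slc6a9, lower in NRF2 KO) and DESeq2 and limma called 0. The fit of only the 2 MR groups called Slc6a9 (-0.35, adjusted p = 0.020), along with 600 of 12759 genes in all. The interaction of genotype and diet was called for 0.045% of all genes and for 0 of the 8 by edgeR, DESeq2 and limma, with 2 at an unadjusted p under 0.05, Slc7a1 and Slc6a9, of opposite sign. The median difference of the 8 between NRF2 KO and WT was 0.14 on Con and -0.0014 on MR. These comparisons share their mice with the MR comparisons, and their intervals are plotted beside them.

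**Figure D2:**
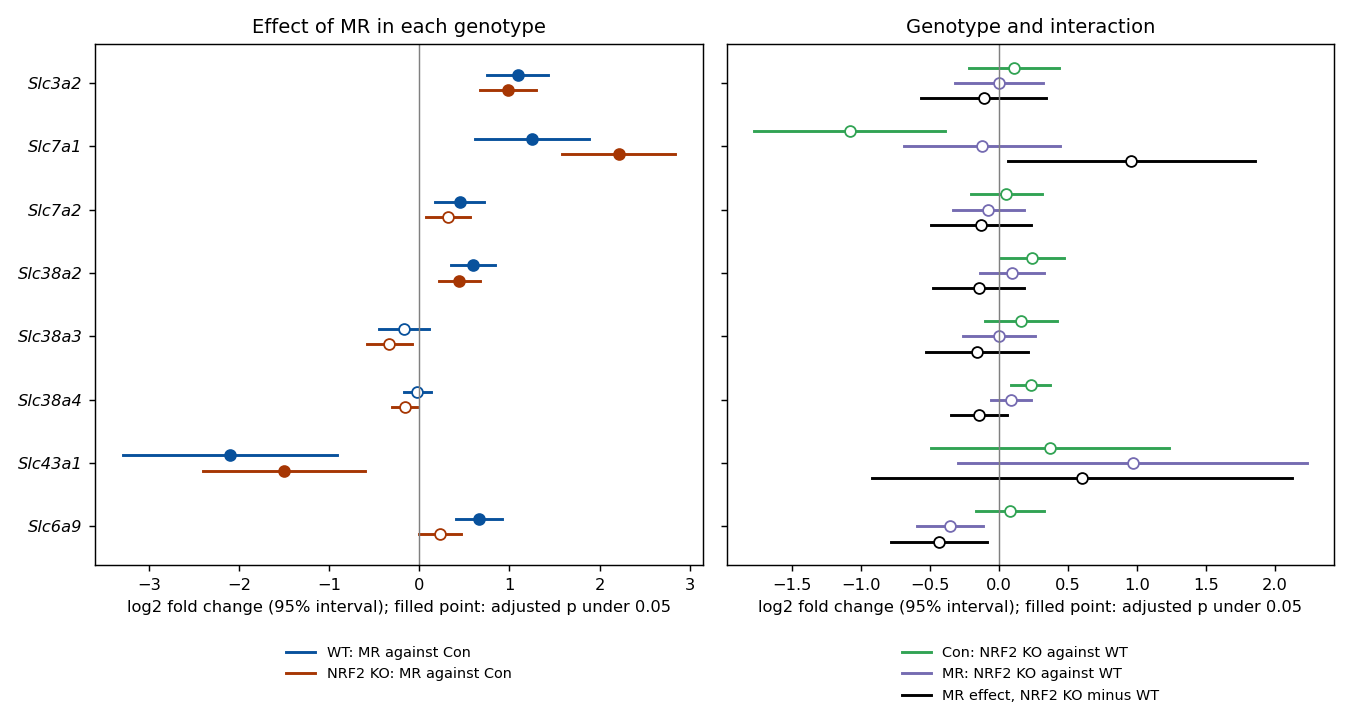
Log2 fold changes of the 8 transporters (horizontal axes) with 95% intervals, for MR against Con in each genotype on the left and for NRF2 KO against WT on each diet and the interaction on the right. Filled points were called at an adjusted p under 0.05, as were 6 transporters in WT and 4 in NRF2 KO on the left and 0 on the right.

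The calls that did and did not hold when each mouse was left out are plotted for both MR comparisons. The count of transporters called was 4 to 6 for WT over these 22 fits, and 3 to 5 for NRF2 KO.

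**Figure D3:**
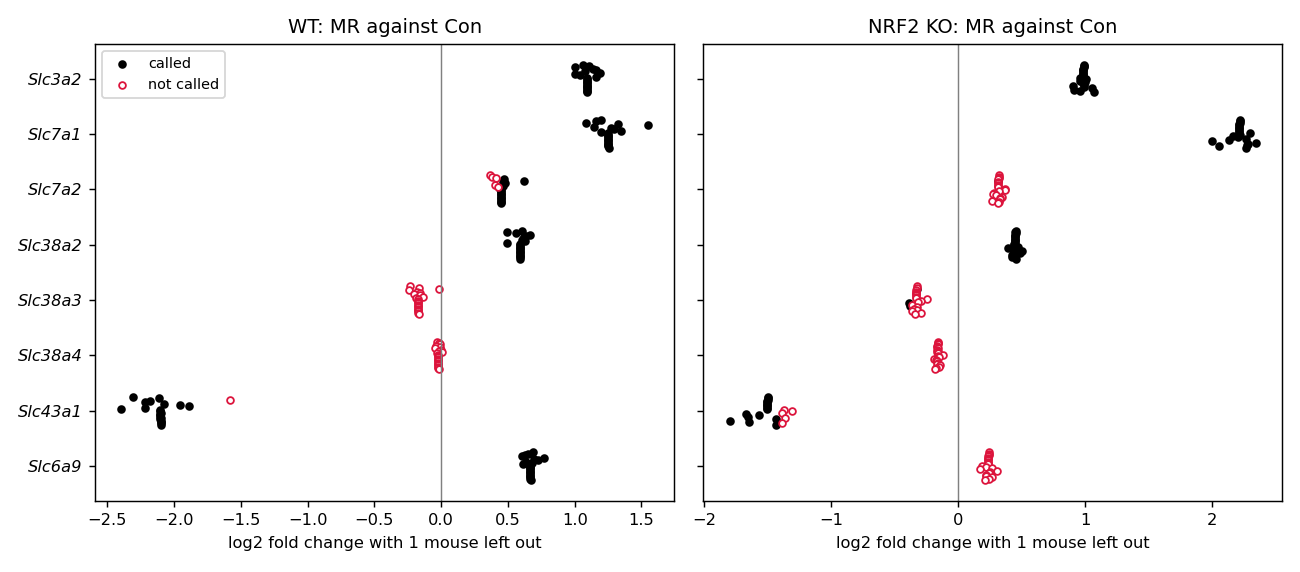
Log2 fold change for MR against Con (horizontal axes) of each transporter in the 22 fits that leave out 1 mouse each, in WT on the left and NRF2 KO on the right, filled where called. Slc3a2, Slc7a1 and Slc38a2 were called in all 22 fits of both genotypes, and Slc7a2 and Slc43a1 in 17 and 21 of the WT fits.

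Among other amino acid transporters of the plasma membrane, 25 were listed for comparison, of which 17 were in the table and 15 tested. On MR 6 rose and 0 fell in WT, where 1 fell by DESeq2 and 0 by limma, and 6 rose and 2 fell in NRF2 KO. Over all genes 6.91% rose and 6.91% fell in WT, and 6.23% rose and 6.34% fell in NRF2 KO. The median log2 fold changes of the 15 were 0.27 and 0.32. Those called in both genotypes included partners of Slc3a2. Slc7a7, the y+LAT1 light chain that pairs with it, rose from 3.98 ± 1.15 to 7.52 ± 0.969 CPM in WT (SD, n = 5; log2 fold change 0.92, SE 0.20, adjusted p = 0.0028) and by 1.17 in NRF2 KO (SE 0.18, adjusted p = 1.9e-04). Slc7a11, the cystine carrier xCT and another partner of Slc3a2, had at most 3 counts per library in WT Con and a mean of 8.75 ± 4.97 CPM (n = 5) in WT MR, at least 46.2-fold over a floor of 3 counts per library. In NRF2 KO its means were 0.146 ± 0.0960 CPM on Con and 1.76 ± 1.55 CPM on MR (n = 6), and on MR it was lower in NRF2 KO than in WT (-2.29, SE 0.47, adjusted p = 0.0095). That call held in 22 of 22 fits with a mouse left out and was lost in the fit of the MR groups alone (-2.28, adjusted p = 0.075). Its rise in NRF2 KO was lost with all 24 mice (3.48, adjusted p = 0.26) and with quality weights on them (2.91, adjusted p = 0.23). In the fit of the NRF2 KO groups alone Slc7a11 did not pass the filter on low counts and was not tested. NRF2 KO Con libraries held at most 5 counts of it, and NRF2 KO MR libraries 2 to 89. Slc3a1, the other heavy chain (rBAT), rose by 0.94 in WT and 0.56 in NRF2 KO, with adjusted p-values of 0.0053 and 0.048, the second called in 7 of 22 fits with a mouse left out (highest adjusted p = 0.12). Slc6a13, a carrier of GABA and taurine, rose by 0.83 (adjusted p = 4.9e-06) and 0.62 (adjusted p = 6.4e-05), and its neighbour Slc6a12, a carrier of betaine and GABA, by 0.39 (adjusted p = 0.0059) and 0.44 (adjusted p = 0.0013).

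Carriers of the lysosome and mitochondrion were counted in the same way. Of 17 listed, 14 were tested. On MR 0 were called in either genotype by edgeR's quasi-likelihood test, DESeq2 or limma of the 22 mice. By edgeR's test 13.8% of all genes were called in WT and 12.6% in NRF2 KO. With 14 genes, a count of 0 does not set the carriers apart from genes in general. At an unadjusted p under 0.05 there were 2 carriers in WT and 3 in NRF2 KO. With library size scaling 1 rose in WT and 3 in NRF2 KO, and quality weights on all 24 mice gave 1 higher and 1 lower in NRF2 KO. Their median log2 fold changes were 0.016 and 0.057. Of 14 regulators and readouts of the amino acid response tested, 4 rose in WT and 6 in NRF2 KO. Over all genes 6.91% and 6.23% rose. None of the 14 fell in either genotype by edgeR, DESeq2 or limma. The 4 in WT became 6 by DESeq2 and 2 with all 24 mice, unweighted or with quality weights. Asns rose from 4.79 ± 1.08 to 82.3 ± 7.40 CPM in WT (log2 fold change 4.09, SE 0.24, adjusted p = 9.1e-10) and from a mean of 4.22 to 60.5 ± 12.7 CPM in NRF2 KO (3.86, SE 0.22, adjusted p = 5.9e-10). Chac1, which degrades glutathione, rose by 1.29 (adjusted p = 0.043) and 2.16 (adjusted p = 9.5e-04), and Trib3, a pseudokinase that restrains ATF4, by 0.85 (adjusted p = 0.0035) and 1.23 (adjusted p = 1.1e-04). The WT call of Chac1 held in 13 of 22 fits with a mouse left out (highest adjusted p = 0.11). With all 24 mice Trib3 was not called in WT (0.47, adjusted p = 0.48) or in NRF2 KO (adjusted p = 0.074). The values of the 4 gene groups are plotted for both genotypes.

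**Figure D4:**
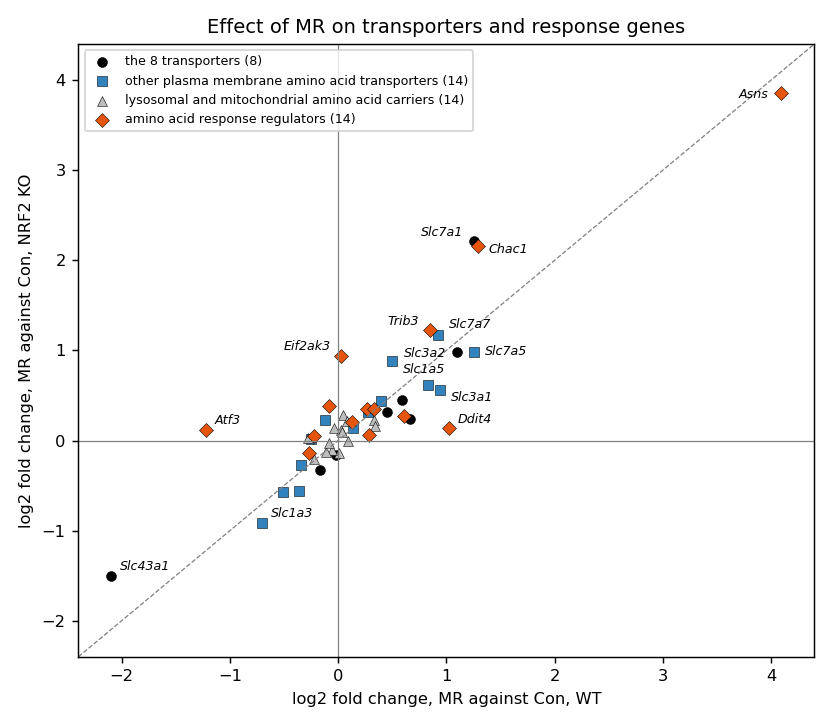
Log2 fold change for MR against Con in WT (horizontal axis) and in NRF2 KO (vertical axis) of the 8 transporters, 14 of the 15 other plasma membrane transporters tested, 14 lysosomal and mitochondrial carriers and 14 response genes, with equality dashed. Slc7a11 is left out because its WT Con level was at the floor; the carriers of organelles lie near 0, and Slc7a1 and Slc3a2 lie with Chac1, Trib3 and Slc7a7 at the upper right.

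The genes whose log2 CPM followed each transporter most closely over the 22 mice were sought among 8772 genes of at least 5 CPM. These correlations are descriptions, because the mice share groups, diet and library preparation. Slc3a2 was followed most closely by Gars, glycyl-tRNA synthetase (Pearson r 0.95), and Hspa9, a mitochondrial chaperone (0.93). The closest to Slc7a1 were Crls1 (0.90) and Trib3 (0.90), and to Slc38a2 BC024978 (0.90) and Rhbdd2 (0.88). For Slc6a9 they were Akr1c19 (0.90) and Mif (0.89), and for Slc7a2 Fxr1 (0.83) and BC005537 (0.82). The falling member Slc43a1 was followed by Hp and Serpina3n, both acute-phase genes of liver (0.86 and 0.84). Slc38a3 was followed by Azgp1 (0.87) and Edf1 (0.81), and Slc38a4 by Cxcl12 (0.75). After removal of the group means, r was 0.78 for Slc3a2 with Gars, 0.61 for Slc7a1 with Trib3 and 0.73 for Slc43a1 with Hp. Among the members themselves, the closest pair within groups was Slc38a3 with Slc43a1 (0.69), followed by Slc38a3 with Slc38a4 (0.58), while Slc3a2 and Slc7a1 reached 0.36 within groups and 0.79 over all 22 mice.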

How the data were processed

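Raw count values per gene were deposited by the authors, who processed QuantSeq 3′ reads with the kit maker's pipeline; the labels' processing notes name GRCm38, mm10, R 3.4.3 and DESeq2 1.18.1, and the aligner and strand setting are not given in the sources used here. The authors also deposited a normalized signal, which equals the counts divided by 1 size factor per mouse (largest relative deviation 9.8e-15). Every listed gene has at least 72 counts over the 24 mice. Groups came from the sample labels, columns from mouse numbers, and 0 columns of per-sample values lacked a sample.

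The counts of 22 mice were fitted with edgeR 4.0.16 in R 4.3.3: TMM, filter by expression, 1 mean per group, robust quasi-likelihood F-tests, Benjamini-Hochberg adjustment over 13336 genes. Mice, not technical replicates, give the errors, and log2 CPM used a prior count of 2. Alternatives were DESeq2 size factors, library size scaling, no filter, at least 10 counts in every mouse, fits of the compared groups alone, all 24 mice unweighted or with limma 3.58.1 quality weights, DESeq2 1.42.0, limma on log2(normalized count + 1), a further criterion of 1 on the size of the log2 fold change, and each mouse left out. Members and lists were chosen with earlier results of these data known. The text names the members, other transporters (at least 1 CPM) and response genes called on MR in both genotypes, Slc7a11, Nfe2l2, and the 2 genes most correlated with each member, of which 1 for Slc38a4 is not reported here. Gene names came from the deposited table, positions and transcripts from GENCODE M21, promoters from RefSeq. Figures used matplotlib 3.10.9 in Python 3.11.15.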

Additional observations from a re-analysis of the deposited data

Results flagged for a closer look

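Of the 32 combinations of transporter and group checked for a mouse far from the others, 1 stood out by Dixon's test at its 95% critical value, a test that flags about 1 in 20 groups by chance. It was Slc38a2 in WT MR, where mouse WT_MR_7616 had 172 CPM and the next highest had 130 CPM. Without that mouse the rise of Slc38a2 on MR in WT was 0.49 on the log2 scale and was still called.

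The mice left out of the fit stood outside the range of their groups for several transporters. WT_CON_7604, on the Con diet, had 135 CPM of Slc3a2, 6.44 CPM of Slc7a1 and 47.5 CPM of Slc6a9, each above every other WT Con mouse in the scaling of all 24 mice. Its Slc3a2 and Slc7a1 values were 2.36 and 3.24 times the medians of those mice. WT_MR_7612 had 283 CPM of Slc3a2 and 11.9 CPM of Slc7a1, above every other WT MR mouse. The same mice stood above their groups for Trib3 (88.8 CPM against at most 23.6, and 85.4 CPM against at most 39.4) and Slc7a11 (9.57 CPM against at most 0.154, and 132 CPM against at most 16.4). WT_MR_7612 lay below every other WT MR mouse for Slc7a2 (355 CPM against at least 361) and Slc38a3 (383 CPM against at least 393). Slc38a2, Slc38a4 and Slc43a1 lay inside the range of the group in both mice.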

How the results depend on the processing

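No paired analysis was possible because mouse numbers are unique and no number is shared between groups. Of 8 transporters, 3 were called on MR in WT if the size of the log2 fold change also had to reach 1. In NRF2 KO they were 2 under that criterion, 2 where each mouse had to have 10 counts of a gene, a filter that drops Slc7a1 and Slc43a1, and 7 with all 24 mice and quality weights. That last setting called 2693 of 13319 genes for MR in NRF2 KO, against 1677 of 13336 in the fit of 22 mice given first. For genotype on Con, DESeq2 called 2 and leaving out a mouse gave 0 to 1, the 1 without WT_CON_7605. On MR, 1 was called (Slc6a9) in the fit of only the groups compared and 1 with quality weights. Over all genes those settings called 600 of 12759 and 604 of 13319. The other alternatives kept the counts of transporters called within 1.5 times. Values that were not called changed sign as follows. With library size scaling they were 0.076 for Slc38a4 (MR in WT), -0.0054 for Slc7a2 (genotype on Con), 0.032 for Slc3a2 and 0.033 for Slc38a3 (genotype on MR). For genotype on MR, Slc3a2 and Slc38a3 were 0.0038 and 0.0041 with at least 10 counts and 0.0019 and 0.0022 with only the groups compared, and Slc38a3 was 0.026 with all 24 mice and 0.0038 with quality weights. For genotype on Con, all 24 mice gave -0.21 for Slc3a2, -0.029 for Slc7a2 and -0.058 for Slc6a9, and quality weights gave -0.026 for Slc3a2 and -0.038 for Slc6a9. With a mouse left out, genotype on MR ran from -0.099 to 0.086 for Slc3a2, from -0.035 to 0.039 for Slc38a3 and from -0.33 to 0.012 for Slc7a1, genotype on Con from -0.033 to 0.22 for Slc7a2, and MR in WT from -0.044 to 0.0026 for Slc38a4. Library size scaling moved the median of all genes by 0.15 for MR in NRF2 KO. Under it Slc7a2 (0.48, adjusted p = 0.019) and Slc6a9 (0.38, adjusted p = 0.032) were called there. These p-values test a fold change against 0. Slc7a2 lay 0.32 and Slc6a9 0.23 above that median, and those distances were not tested. The cause of these changes was not tested. Low counts limit Slc43a1 and Slc7a1, whose intervals are the widest of the 8 for MR in each genotype.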
